A study of Mus musculus with 24 samples.

Results

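A list of 36 genes of the cell cycle and of DNA replication was followed through the differentiation of mouse embryonic stem cells (ESCs) with and without Eed. The list was set by gene name, though with earlier results of these data known. A probe set naming a single gene was matched for 35 of the 36, out of 19938 genes tested, and Ccnb1 is the unmatched one. The genes fall into 5 roles: D-type cyclins and G1 kinases (5 genes), E- and A-type cyclins with Cdk2 and Cdc25a (5), pocket proteins and E2F factors (6), replication licensing and synthesis (9), and mitosis (10 measured of 11).

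The study used Affymetrix mouse gene arrays on total RNA from 4 ESC clones. The Eed knockout (Eed KO) lines were named E14 and J1, and the wild-type (WT) lines J1 and V6.5, so J1 is the only line present in both genotypes. Each clone was measured as undifferentiated ESCs on day 0 and as embryoid bodies, floating aggregates of differentiating cells, on day 3 and day 7, with 2 arrays each time, which gave 4 arrays per genotype and day and 24 in all. Before aggregation all clones were kept with LIF, a cytokine that holds ESCs undifferentiated, on mouse embryonic fibroblasts inactivated by Mitomycin C. The fibroblasts were depleted first, the aggregates formed in hanging drops for 2 days, and LIF was left out from then on. How Eed was disrupted is not given in the sources used here. Each genotype rests on 1 clone per line as far as the labels say. Whether the paired arrays come from separate cultures is not said there, and the p-values therefore reflect array-to-array spread that may be technical.

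Polycomb repressive complex 2 needs EED to place methyl groups on lysine 27 of histone H3, a mark of silent developmental genes. Cell division is driven by cyclins, which activate cyclin-dependent kinases (CDKs). D-type cyclins with CDK4 or CDK6, and then E-type cyclins with CDK2, phosphorylate the pocket proteins of the Rb family and so release E2F factors, which switch on genes for DNA replication. Genes needed for mitosis are switched on later, largely through FOXM1 and B-MYB. ESCs are known for a short G1 phase and high cyclin E, and G1 lengthens as they differentiate.

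Arrays repeated for a clone and day had a Pearson r across genes between 0.962 and 0.995. The lowest r belonged to the day 7 arrays of WT J1, where 1256 genes differed by 2-fold or more between repeats; the remaining 11 pairs had 21 to 163 such genes. Among the listed genes the median gap in that pair was 0.49 on the log2 scale, against 0.08 to 0.25 in the others. Eed itself ranged from 5.76 to 7.48 across KO arrays and from 9.37 to 11.02 across WT arrays, with no overlap. Which part of the gene this probe set covers, against what was deleted, is not given here. Values throughout are RMA log2 signals, which compare arrays for 1 gene and not genes with each other. A gene is called changed where limma gave an adjusted p under 0.05 over all 19938 genes. In bulk RNA, fewer cells of a type and less RNA per cell cannot be told apart.

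Promoter sequences are given first for 5 genes whose transcripts fell in WT cells by day 7, to set out the sites by which replication and mitotic genes are known to be controlled. Rrm2 and Mcm6 act in DNA synthesis, Cdc25a at the G1 to S step, and Aurka and Cdc20 in mitosis. Each run is the 150 bases before the annotated start, 5′ to 3′ on the gene's strand, from RefSeq on GRCm38.p6. Capitals mark a match on either strand to 1 of 3 motifs, the E2F site (TTTCCCGC or TTTGGCGC), the CCAAT box that binds NF-Y, and the cell cycle homology region CHR (TTTGAA).
Rrm2, chr12:24708104-24708253, plus strand: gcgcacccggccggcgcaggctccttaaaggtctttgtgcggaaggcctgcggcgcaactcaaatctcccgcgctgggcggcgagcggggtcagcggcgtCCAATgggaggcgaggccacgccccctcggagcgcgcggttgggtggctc
Mcm6, chr1:128359706-128359855, minus strand: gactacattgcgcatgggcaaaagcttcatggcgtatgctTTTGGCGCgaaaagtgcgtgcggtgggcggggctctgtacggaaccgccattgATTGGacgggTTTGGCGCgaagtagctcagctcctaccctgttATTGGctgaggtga
Cdc25a, chr9:109875429-109875578, plus strand: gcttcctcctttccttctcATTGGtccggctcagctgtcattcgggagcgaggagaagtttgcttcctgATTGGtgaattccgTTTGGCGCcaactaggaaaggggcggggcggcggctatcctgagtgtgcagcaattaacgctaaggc
Aurka, chr2:172370571-172370720, minus strand: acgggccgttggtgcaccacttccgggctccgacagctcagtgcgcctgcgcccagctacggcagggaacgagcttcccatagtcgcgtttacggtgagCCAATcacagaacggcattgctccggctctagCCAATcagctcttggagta
Cdc20, chr4:118437344-118437493, minus strand: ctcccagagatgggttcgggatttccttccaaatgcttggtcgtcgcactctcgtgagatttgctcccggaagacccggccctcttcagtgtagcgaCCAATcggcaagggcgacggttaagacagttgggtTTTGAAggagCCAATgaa

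Mcm6 carried 2 E2F sites and Cdc25a carried 1, each with CCAAT boxes on the opposite strand. Cdc20 had a CHR between 2 CCAAT boxes close to the start. Mcm6, Cdc25a and Cdc20 were added after their values were seen. The printed runs of Rrm2 and Aurka, which were chosen by rule, matched the CCAAT box alone. The table of promoters covers 28 of the 36 genes, from 250 bases before to 50 after the start, and both strands were searched. An E2F site was found in 9 of the 28 (32.1%), against 1.8% of the 27025 genes with a promoter in the table. It was in 5 of the 8 replication promoters (Cdc6, Mcm3, Mcm5, Mcm6 and Mcm7) and in 0 of the 9 mitotic ones. Of the other roles, it was in 2 of 3 promoters of E- and A-type cyclins with Cdk2 and Cdc25a. It was also in 2 of 5 of pocket proteins and E2F factors and 0 of 3 of D-type cyclins and G1 kinases. A CHR was in 7 of the 9 mitotic promoters and 1 of the 8 replication promoters, against 20.2% of those genes. It was also in 3 of 5 promoters of pocket proteins and E2F factors, and in 0 of 3 in each of the 2 cyclin roles. The CHR of Aurka lay after the start, at base 33, outside the printed run. CCAAT was in 21 of the 28, against 41.1% of those genes. In the 5 printed runs no match shares a base with another. A match is a description of sequence and not evidence of binding.

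From day 0 to day 7 in WT, the genes called at 2-fold or more were 4 cyclins and kinases acting between G1 and S. By day 7 cyclin E1 (Ccne1) had fallen 4.35-fold, cyclin D1 (Ccnd1) 2.79-fold and Cdk6 2.27-fold from day 0, while cyclin D2 (Ccnd2) had risen 2.02-fold. All 9 replication genes were lower as well, by smaller amounts. In total 24 of the 35 genes were called (21 lower, 3 higher), against 36.6% of all genes tested, 19.2% being lower and 17.4% higher. The listed genes had a median change of -0.40, against an all-gene median of -0.04, and 27 of the 35 lay below 0. At 2-fold or more 4 were called, against 8.98% of all genes, a share near that background. Day 0 and day 7 arrays did not overlap for 20 of the 35, against 28.6% of genes.

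The WT change came in 2 steps. From day 0 to day 3, 8 genes were called and all were lower, against 5.59% of all genes lower and 11.7% called. They were Ccnd3, Ccnd2, E2f1, Ccne1, Aurka, Ccne2, Ccnb2 and Cdc25a, with falls between 0.35 and 0.71. From day 3 to day 7, 18 were called, 14 lower and 4 higher, against 29.5% of all genes (15.4% lower, 14.2% higher). The 4 that rose were Ccnd2, Ccnd3, Mki67 and Rbl2. The WT counts leaned on V6.5: with J1 as the only WT clone, they were 0, 5 and 11 for day 3 against 0, 7 against 3 and 7 against 0. Single arrays mattered most in the first step, where 1 gene was called without V6.5 day 0 array 1, 3 without V6.5 day 0 array 2 or J1 day 3 array 2, 4 without J1 day 0 array 1, and 5 without J1 day 0 array 2 or V6.5 day 3 array 2; in the second, 11 were called without V6.5 day 7 array 1.

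In Eed KO cells 10 of these genes passed the test over the same week. Cyclin E1 fell 1.69-fold and cyclin D2 rose 1.89-fold from day 0 to day 7. Mcm3, Mcm4, E2f1, Cdc25a, Ccne2, Cdc20, Aurka and Plk1 fell by 0.37 to 0.43. Of the 10, 9 were lower and 1 higher, against 16.5% of all genes (7.29% lower, 9.25% higher). The median of the 35 was -0.18 (all genes -0.04), with 29 below 0, and -0.28 (all genes -0.13) with arrays centred on their medians. E2f1 and Rbl2 were the 2 called from day 0 to day 3, both lower, against 6.36% of all genes, and Ccnd2 and Rbl2 the 2 called from day 3 to day 7, both higher, against 10.2%. The day 7 count was 1 without the KO E14 clone and 2 without KO J1. The counts of 2 ran from 1 to 3 and from 1 to 4 as single arrays were left out, and for day 7 against day 0 the KO arrays left out gave 2 (E14 day 7 array 1), 3 (E14 day 7 array 2 or J1 day 0 array 2), 4 (either E14 day 0 array) or 5 (J1 day 0 or day 7 array 1).

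**Figure D1:**
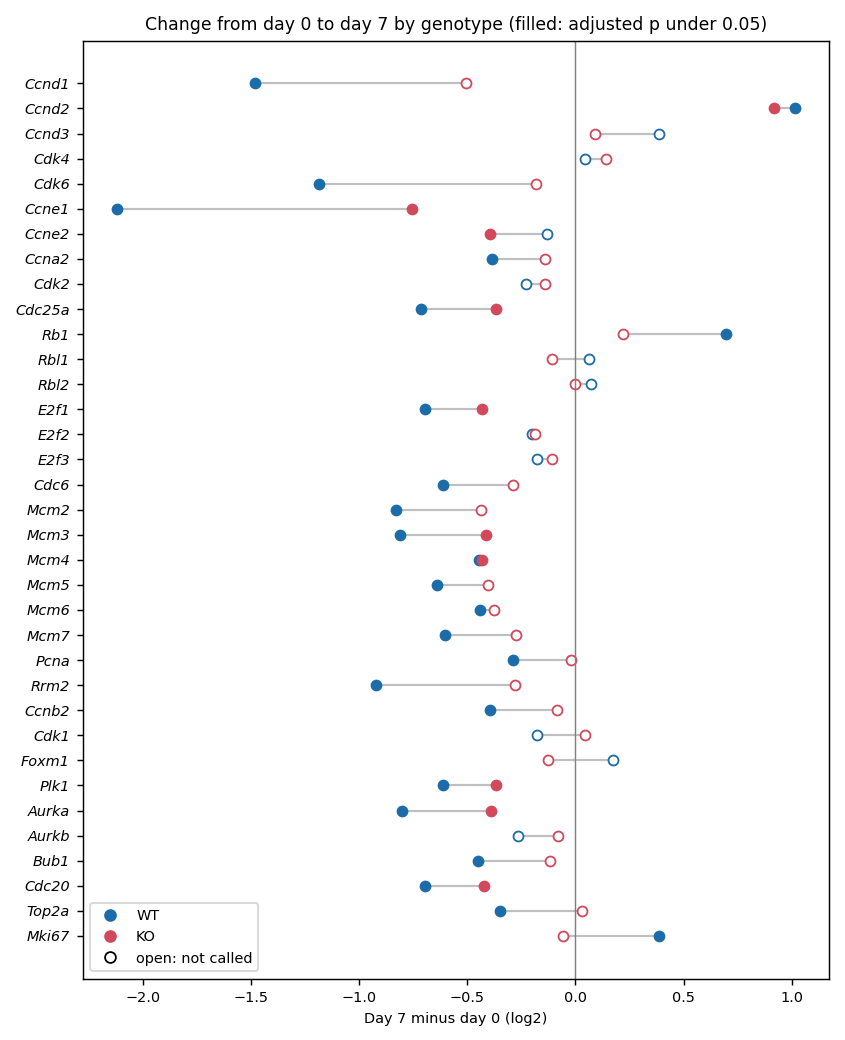
Change from day 0 to day 7 in log2 signal for each of the 35 measured genes (rows, grouped by role), with WT in blue and Eed KO in red; filled points passed the adjusted p threshold of 0.05 and open points did not. WT Ccne1 lies farthest left at -2.12, and Ccnd2 lies to the right in both genotypes at 1.02 and 0.92.

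Whether the genotypes differed in their change over time was tested directly as an interaction. From day 0 to day 7, Ccne1 fell less in KO than in WT by 1.36 (SE 0.21, 95% interval 0.93 to 1.80, limma adjusted p = 1.8e-04), and Cdk6 by 1.00 (SE 0.30, 0.38 to 1.62, adjusted p = 0.040). These were 2 of the 35, against 8.11% of all genes, a share in the range of the background. Ccnd1 differed by 0.98 (0.32 to 1.64, adjusted p = 0.060) and Rrm2 by 0.64 (0.13 to 1.16, adjusted p = 0.12), and neither passed. From day 3 to day 7, Ccne1 was the 1 gene called, at 1.19 (SE 0.21, adjusted p = 0.0012), against 5.26% of all genes. Of the 35, 0 were called from day 0 to day 3, where 0.0752% of all genes were. Without WT J1 day 7 array 1 the day 7 against day 0 count was 7, and the day 7 against day 3 count 3; the Cdk6 call was lost without any 1 of 11 single arrays or in 7 other alternatives.

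Between genotypes on the same day, cyclin D2 stood apart throughout: it was higher in Eed KO cells on day 0, day 3 and day 7. On day 7 KO cells also held more cyclin E1, cyclin D1 and Mcm2, and less cyclin E2, than WT cells. Top2a, which untangles DNA for mitosis, was lower in KO cells on day 0. On day 0, 2 of 35 were called (1 higher, 1 lower), against 2.02% of all genes (1.51% higher, 0.502% lower). On day 3 it was 1, higher, against 2.18% (1.58% higher), and on day 7 it was 5 (4 higher, 1 lower), against 16.3% (10.1% higher, 6.23% lower), so the day 7 count lay near that of all genes. The day 7 median of the 35 was 0.12, with 24 above 0, against an all-gene median of -0.04. It was 0.07 (all genes -0.04) after a second quantile normalization and 0.05 (all genes -0.10) with arrays centred on their medians. Without WT J1 day 7 array 1 the day 7 count was 9, and without KO J1 day 7 array 2 it was 3; on day 0, 7 single arrays each took it to 1.

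**Figure D2:**
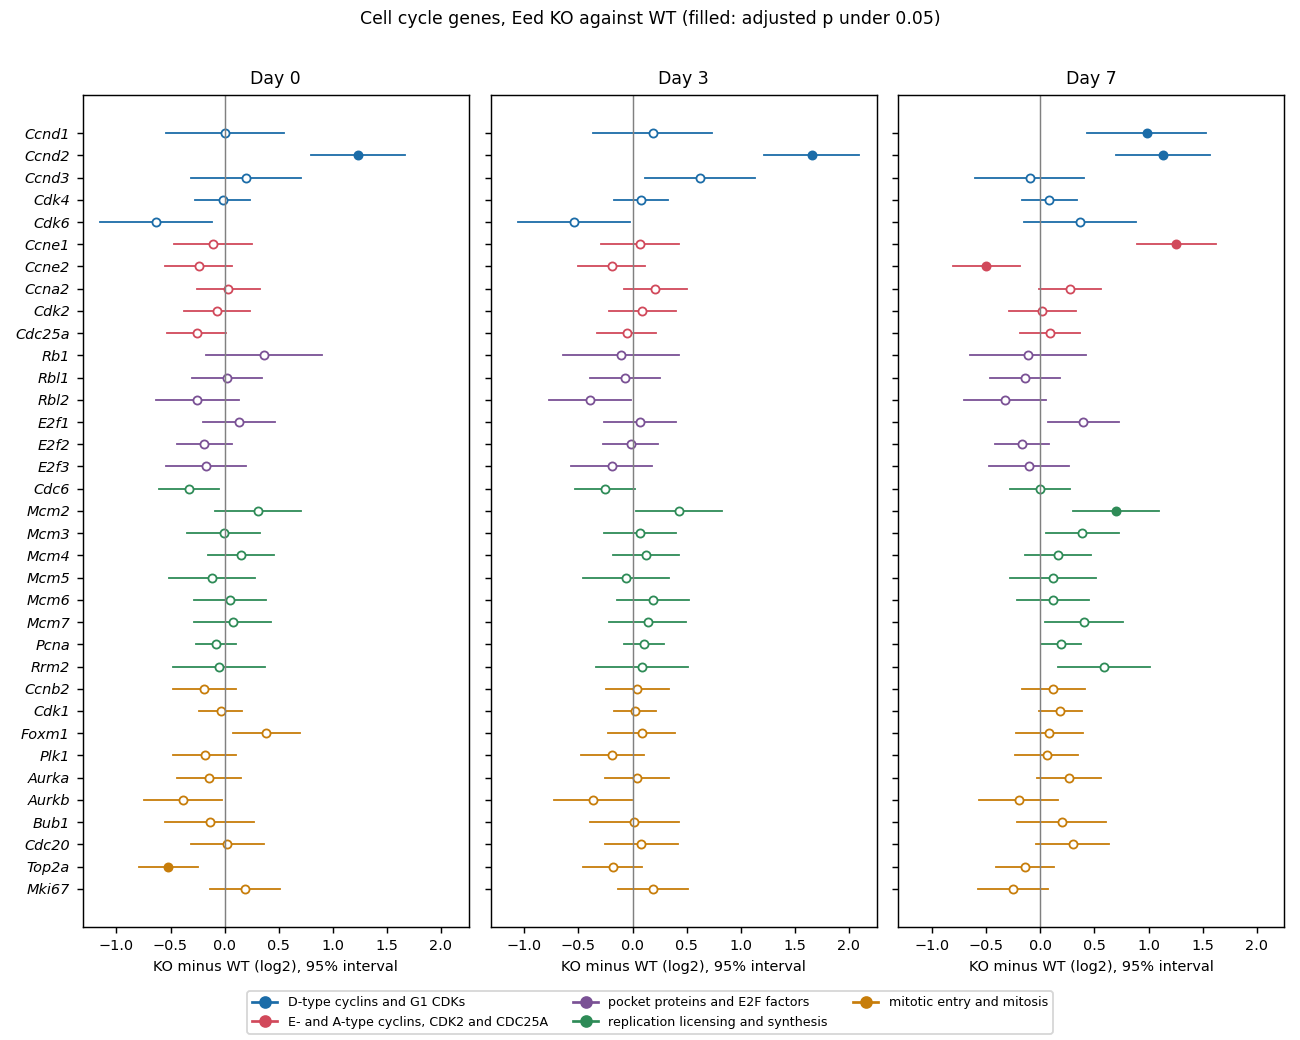
Eed KO minus WT difference in log2 signal (x axis) with its 95% interval for the 35 measured genes (rows, coloured by role), in panels for day 0, day 3 and day 7; filled points passed the adjusted p threshold of 0.05. Ccnd2 is filled in all 3 panels, at 1.23, 1.66 and 1.13, and day 7 adds Ccne1, Ccnd1, Mcm2 and Ccne2.

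The genotypes also differed in the levels of cell type marker genes in day 7 embryoid bodies. The mean of 8 markers of undifferentiated ESCs was 12.05 in KO and 11.73 in WT on day 0. In WT arrays it was 8.23 on day 7 (7.84 to 8.68), while KO arrays held 11.42 (11.26 to 11.83), and 8 of 8 were called higher in KO. The pluripotency factor Pou5f1 read 11.97, 11.49, 11.80 and 11.96 in KO day 7 arrays and 8.98, 7.95, 8.85 and 8.94 in WT. Primitive red blood cell markers moved the other way, at 10.3 to 11.9 in WT and 5.61 to 6.46 in KO, with 5 of 5 lower in KO. Endothelial markers were called lower in KO for 2 of 6, cardiac markers for 3 of 6 and feeder fibroblast markers for 3 of 10 (1 higher). Neuronal markers were higher for 4 of 6 and visceral endoderm markers for 1 of 6. All genes were called higher at 10.1% and lower at 6.23%. The neuronal list fell in both genotypes. Its mean went from 8.20 on day 0 to 7.675 on day 7 in KO, and from 8.12 to 6.94 in WT. KO was thus higher on day 7 through a smaller fall. The feeder fibroblast list rose after the feeders had been depleted. From day 3 to day 7 its mean went from 6.89 to 8.64 in WT and from 7.12 to 7.90 in KO. The source of that signal was not tested. The endothelial difference lay between E14 KO and V6.5 WT (median -2.56, 4 of 6 called lower); within J1 the median was 0.30, with 5 of 6 above 0 and 1 called lower. Visceral endoderm markers had medians of 0.87 in the first of these pairs and -0.71 within J1. On day 0, feeder fibroblast markers read 7.81 to 8.99 in KO and 7.32 to 7.69 in WT, and 3 of 10 (Lox, Fbln2 and Thy1) were called higher in KO. Their part in the differences described here was not tested.

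Among the D-type cyclins, which pair with CDK4 and CDK6, Ccnd2 was the one called higher in KO cells on every day. On day 0 it read 11.03 and 11.07 in KO E14, 10.68 and 10.59 in KO J1, 9.41 and 9.29 in WT J1, and 9.88 and 9.86 in WT V6.5. By day 3 the same order of arrays gave 10.91, 10.95, 10.34 and 10.23 in KO, against 9.33, 8.91, 8.91 and 8.66 in WT. The day 7 values were 11.75, 12.30, 11.44 and 11.56 in KO, against 11.00, 10.26, 10.61 and 10.64 in WT. Every KO array lay above every WT array of its day, and in both genotypes day 7 was the highest of the 3 days. The KO minus WT difference was 1.23 on day 0 (SE 0.21, 2.35-fold, adjusted p = 0.0021), 1.66 on day 3 (SE 0.21, 3.15-fold, adjusted p = 8.1e-05) and 1.13 on day 7 (SE 0.21, 2.19-fold, adjusted p = 5.6e-04). Its rise from day 0 to day 7 was 1.02 in WT and 0.92 in KO, and the interaction was -0.10 (95% interval -0.63 to 0.43). The day 0 call was lost when a clone's 2 arrays were averaged first (adjusted p = 0.14) or without KO E14 (0.066), and the day 3 call when they were averaged (0.053).

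Ccnd1 fell in WT cells and spread widely there by day 7. Day 0 arrays read 11.44, 11.17, 11.52 and 11.51 in KO (E14, then J1) and 11.15, 11.33, 11.54 and 11.59 in WT (J1, then V6.5). On day 3 the KO values were 11.04, 10.91, 11.06 and 11.29, against 10.91, 10.34, 11.31 and 11.00 for WT. At day 7 KO held 10.76, 10.89, 10.88 and 11.08, and WT 10.76, 9.21, 9.45 and 10.27. The KO arrays stayed within a narrow band (10.90 ± 0.13, SD, n = 4), and the WT arrays did not (9.92 ± 0.72, SD, n = 4); the lowest KO and the highest WT array met at 10.76. That WT array, J1 array 1, lay 1.54 above its repeat. KO exceeded WT on day 7 by 0.98 (SE 0.27, 1.98-fold, adjusted p = 0.012), and the call was lost without KO E14 (0.079) or KO J1 (0.13). The WT fall from day 0 to day 7 was 1.48 (SE 0.23, adjusted p = 1.1e-05); in KO the change was -0.50 (adjusted p = 0.14).

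Cyclin D3 (Ccnd3) dipped and recovered in WT cells. KO arrays read 10.68, 10.79, 9.77 and 10.42 on day 0, 10.17, 10.37, 9.81 and 10.18 on day 3, and 10.55, 11.00, 9.98 and 10.48 on day 7. WT arrays read 9.72, 10.00, 10.66 and 10.50, then 9.53, 8.99, 9.82 and 9.70, then 10.18, 10.67, 11.06 and 10.51. The genotypes overlapped on day 0 and day 7, and on day 3 the lowest KO array (9.81) fell just under the highest WT array (9.82). WT Ccnd3 fell by 0.71 to day 3 (adjusted p = 0.027) and rose by 1.09 from there to day 7 (adjusted p = 2.6e-04), and the KO minus WT difference on day 3 was 0.62 (adjusted p = 0.25).

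The kinase partners behaved unlike each other. Cdk6 read 9.55, 9.48, 9.74 and 9.91 in KO, against 9.69, 10.21, 10.57 and 10.73 in WT on day 0. On day 3 it read 9.62, 9.80, 9.74 and 9.86 in KO, against 10.25, 9.78, 10.61 and 10.56 in WT, and on day 7 9.29, 9.57, 9.48 and 9.60 against 9.37, 8.08, 9.38 and 9.64. WT V6.5 was the high clone on day 0 and day 3, the genotypes overlapped on every day, and on day 7 WT J1 array 2 lay far below the other WT arrays. In WT cells Cdk6 fell by 1.18 from day 0 to day 7 (SE 0.21, adjusted p = 8.8e-05), with all of the fall after day 3, and in KO it changed by -0.18 (adjusted p = 0.65). Cdk4 was not called in any of the 12 comparisons of genotype, day or their interaction; from day 0 to day 7 it changed by 0.04 in WT and 0.14 in KO.

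**Figure D3:**
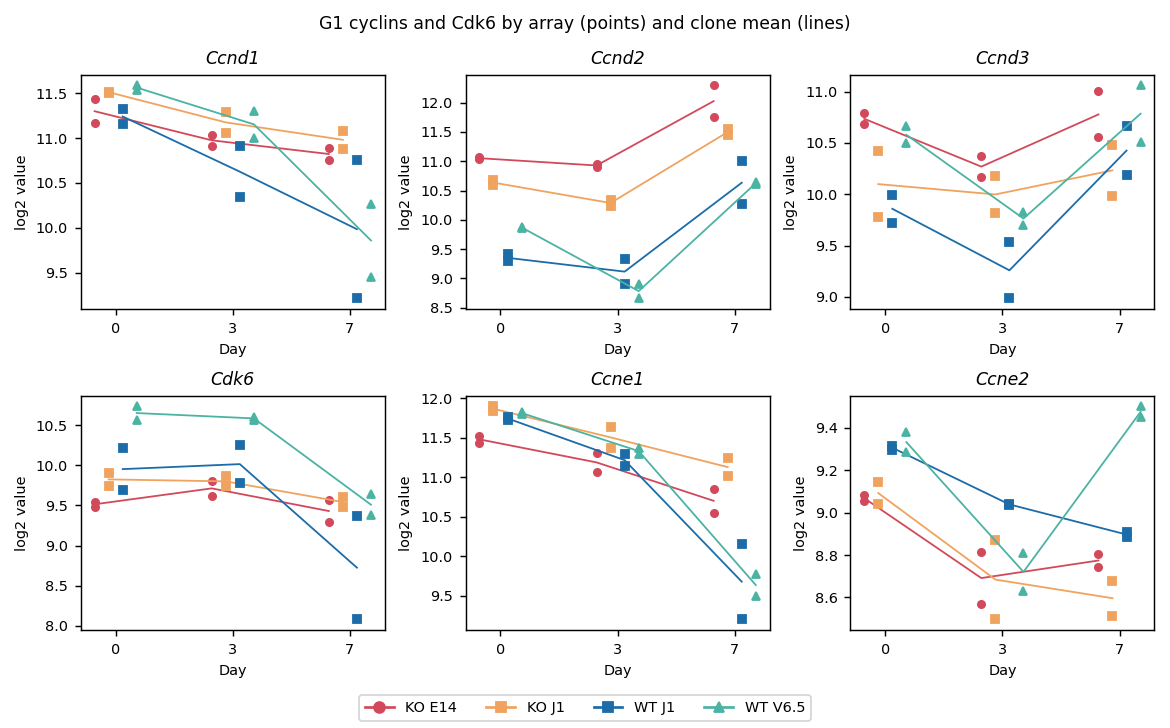
Log2 signal (y axis) of Ccnd1, Ccnd2, Ccnd3, Cdk6, Ccne1 and Ccne2 on day 0, day 3 and day 7 (x axis); points are single arrays and lines join the means of the 2 arrays of each of the 4 clones. Both KO clones lie above both WT clones for Ccnd2 on every day, and for Ccne1 only on day 7, where WT arrays read 9.20 to 10.15 and KO arrays 10.55 to 11.24.

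Cyclin E1, which activates CDK2 at the start of S phase, showed the largest fall of the 35 genes. On day 0 it read 11.52, 11.43, 11.83 and 11.90 in KO, against 11.76, 11.72, 11.82 and 11.80 in WT. By day 3 KO arrays read 11.30, 11.07, 11.37 and 11.63 and WT arrays 11.29, 11.14, 11.36 and 11.29. Day 7 separated them, with 10.55, 10.85, 11.01 and 11.24 in KO, against 10.15, 9.20, 9.49 and 9.77 in WT. The genotypes overlapped on day 0 and day 3, and on day 7 every KO array lay above every WT array. KO exceeded WT on day 7 by 1.26 (SE 0.17, 2.39-fold, adjusted p = 1.7e-05), a call kept in all 38 alternative analyses. WT Ccne1 fell by 0.51 to day 3 (adjusted p = 0.027) and by a further 1.62 to day 7 (adjusted p = 1.8e-08), and KO Ccne1 fell by 0.76 over the week (adjusted p = 9.5e-04).

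Cyclin E2 (Ccne2), the other E-type cyclin, went the opposite way on day 7. KO arrays read 8.75, 8.80, 8.68 and 8.51, and WT arrays 8.88, 8.91, 9.45 and 9.50. All WT arrays were above all KO arrays, but the WT J1 arrays stood only just above them and V6.5 far above. The KO minus WT difference was -0.50 (SE 0.15, adjusted p = 0.023); it was lost without V6.5 day 7 array 1 (0.076), V6.5 array 2 (0.073) or KO J1 array 2 (0.061), without the clone KO E14 (0.075), KO J1 (0.20) or WT V6.5 (0.27), and with repeats averaged (0.12). Cdc25a, the phosphatase that activates CDK2, fell in both genotypes from day 0 to day 7, by 0.72 in WT (adjusted p = 1.8e-05) and 0.37 in KO (adjusted p = 0.026). The KO call of Cdc25a was lost in 10 of 38 alternatives, and the WT call was kept in all. Cyclin A2 (Ccna2), which acts in S phase and G2, fell by 0.38 in WT (adjusted p = 0.013), and its KO change was -0.14. Cdk2 was called in neither, at -0.23 in WT and -0.14 in KO.

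Among the pocket proteins and E2F factors, E2f1 was the member that fell in both genotypes. Its arrays read 9.83, 9.89, 9.65 and 9.95 in KO, against 9.55, 9.29, 10.12 and 9.83 in WT on day 0. Day 3 gave 9.17, 9.36, 8.98 and 9.45 against 9.15, 8.99, 9.31 and 9.23, and day 7 9.19, 9.45, 9.22 and 9.74 against 8.98, 8.96, 8.997 and 9.08. On day 7 all KO arrays lay above all WT arrays by a small margin, and the difference of 0.40 did not pass (SE 0.16, adjusted p = 0.098). From day 0 to day 7 E2f1 fell by 0.69 in WT (adjusted p = 2.3e-04) and 0.43 in KO (adjusted p = 0.031). The KO call was lost in 10 of 38 alternatives, 6 of them single arrays (limma adjusted p = 0.54 without KO E14). The WT call was lost in 1, without V6.5 (0.099). E2f2 and E2f3, the other activating E2Fs, were not called over the week in either genotype, with changes between -0.20 and -0.11.

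Rb1, the retinoblastoma protein that restrains E2Fs, rose by 0.70 in WT from day 0 to day 7 (SE 0.22, adjusted p = 0.015). WT arrays read 8.44, 8.08, 8.52 and 8.32 on day 0 and 9.04, 9.34, 9.20 and 8.56 on day 7, without overlap. The call was lost without WT J1 day 7 array 2 (adjusted p = 0.061), both WT J1 day 7 arrays (0.23), WT J1 (0.31) or WT V6.5 (0.065), and with repeats averaged (0.22). KO E14 read 8.96 and 8.86 on day 0 and 9.37 and 9.29 on day 7, and KO J1 8.59 and 8.40, then 8.52 and 8.52. The KO clones thus differed from each other, and the KO change was 0.22 (adjusted p = 0.58). Rbl2, the pocket protein of quiescent cells, was lower on day 3 than on day 0 in KO (-0.52, adjusted p = 0.048) and rose again by day 7 (0.52, adjusted p = 0.036). KO J1 carried both, with clone means of 7.10, 6.16 and 6.98 on the 3 days, against 6.66, 6.56 and 6.78 in KO E14. The fall was lost in 21 of 38 alternatives (16 of them single arrays; adjusted p = 0.99 without KO J1) and the rise in 12 (6 single arrays, all of KO; 0.64 without KO J1). The dip of Rbl2 was not particular to KO: WT means were 7.13, 6.76 and 7.20 on the 3 days. In WT the fall was not called. The WT rise was called (limma adjusted p = 0.033) and was lost in 11 of 38 alternatives. Rbl1 was not called over the week in either genotype, at 0.06 in WT and -0.11 in KO.

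Replication genes were lower on day 7 in WT as a group: all 9 were called, against 19.2% of all genes lower, with falls from 0.29 (Pcna, the sliding clamp) to 0.92 (Rrm2, a subunit of ribonucleotide reductase that makes deoxynucleotides). Their median was -0.61, and day 0 arrays lay wholly above day 7 arrays for 8 of the 9, against 15.5% of all genes. In KO all 9 also lay below 0, with a median of -0.38, and 2 (Mcm3 and Mcm4) were called, against 7.29% of all genes lower. The 6 Mcm genes encode the hexamer that unwinds DNA, and Cdc6 loads it at origins. In WT they fell by 0.83 (Mcm2), 0.81 (Mcm3), 0.64 (Mcm5), 0.60 (Mcm7), 0.45 (Mcm4) and 0.44 (Mcm6), and Cdc6 by 0.61. In KO the same genes changed by -0.44, -0.41, -0.40, -0.28, -0.43 and -0.38, and Cdc6 by -0.29. The interaction was called for 0 of the 9, against 8.11% of all genes. The WT call of Mcm6 was lost in 7 of 38 alternatives, and the KO calls of Mcm3 and Mcm4 in 11 and 6. Without WT V6.5 the WT calls of Mcm2 (limma adjusted p = 0.086), Mcm4 (0.068), Mcm5 (0.23), Mcm6 (0.12) and Pcna (0.12) were lost. With repeats averaged those of Mcm5 (0.14), Mcm6 (0.28) and Pcna (0.056) were lost. The WT calls of Cdc6, Mcm3, Mcm7 and Rrm2 were kept in all 38.

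Mcm2 was the replication gene with the largest day 7 difference between genotypes. KO arrays read 11.62, 11.64, 12.15 and 12.29 on day 0, 11.71, 11.75, 11.83 and 12.04 on day 3, and 11.05, 11.28, 11.65 and 11.97 on day 7. WT arrays read 11.69, 11.71, 11.63 and 11.46, then 11.60, 11.34, 11.35 and 11.32, then 11.42, 10.56, 10.63 and 10.56. KO J1 was the highest clone on every day, and WT J1 array 1 on day 7 lay above both KO E14 arrays, so the day 7 groups overlapped. The day 7 difference was 0.70 (SE 0.19, 1.62-fold, adjusted p = 0.014). It was lost without KO J1 day 7 array 2 (adjusted p = 0.051), with repeats averaged (0.12), and without the clone KO J1 (0.30) or WT V6.5 (0.21).

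Rrm2, which has a CCAAT box 50 bases before its start, came next in size. On day 7 it read 10.66, 10.92, 11.10 and 11.40 in KO, against 10.76, 9.94, 10.27 and 10.76 in WT. KO E14 array 1 fell within the WT range, and the difference of 0.59 did not pass (SE 0.21, adjusted p = 0.053). The other replication genes differed on day 7 by between -0.0028 (Cdc6) and 0.40 (Mcm7), and none of them was called.

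**Figure D4:**
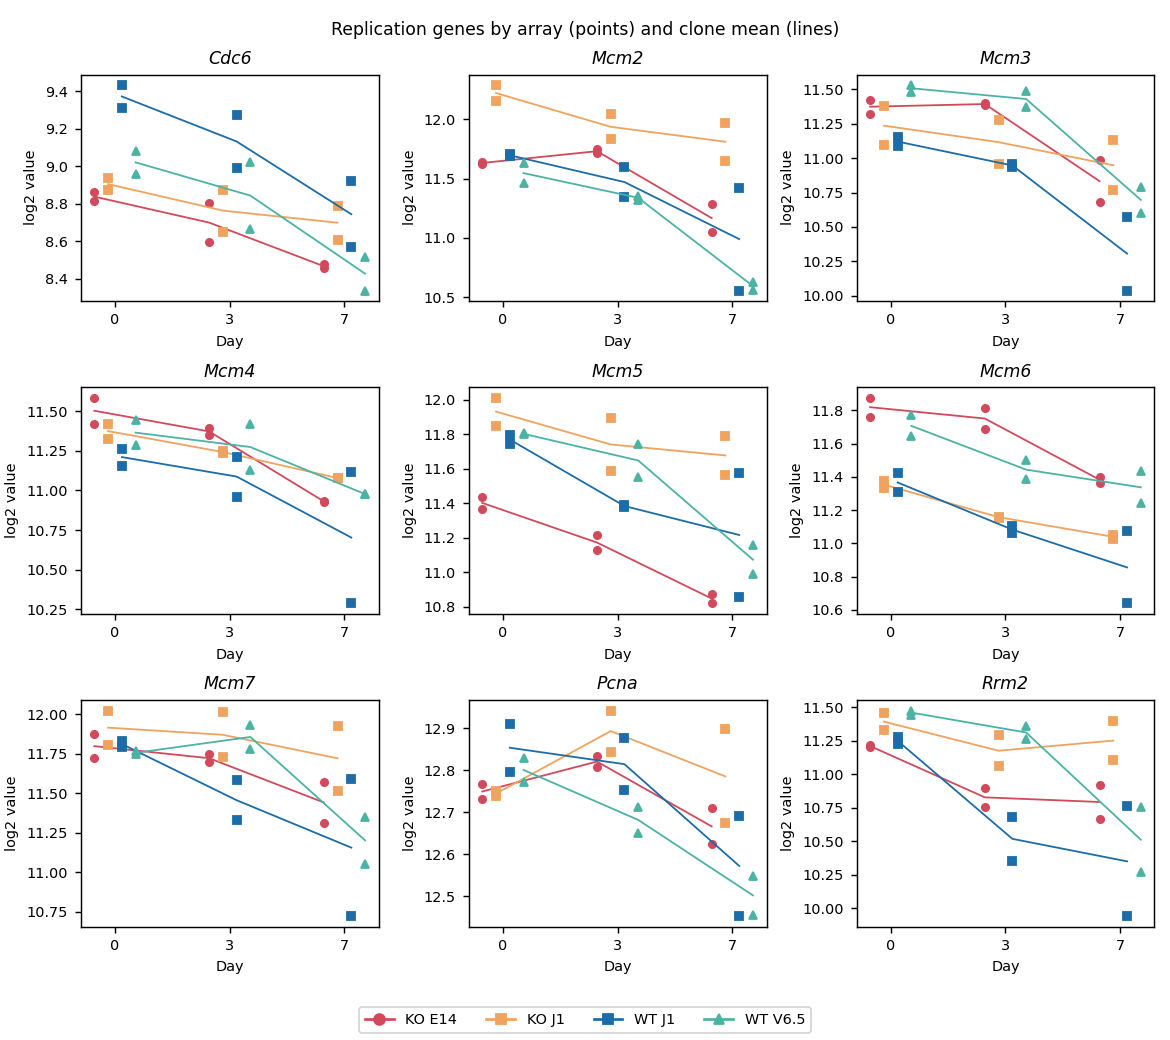
Log2 signal (y axis) of the 9 replication genes on day 0, day 3 and day 7 (x axis); points are single arrays and lines join clone means for the 4 clones. In WT the mean is lowest on day 7 for all 9 genes. For Cdc6 the day 7 means of KO and WT are alike, at 8.582 and 8.585. WT J1 day 7 array 1 sits above the other WT day 7 arrays for Mcm2 at 11.42.

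The mitotic genes fell less evenly. In WT, 6 of the 10 measured were called lower from day 0 to day 7 and 1 higher, with a median of -0.37, against 19.2% and 17.4% of all genes. The kinases Aurka and Plk1 fell by 0.80 and 0.61, Cdc20, which activates the anaphase-promoting complex, by 0.70, the checkpoint kinase Bub1 by 0.45, cyclin B2 (Ccnb2) by 0.40 and Top2a by 0.35. Cdk1, Foxm1 and Aurkb were not called, at -0.18, 0.17 and -0.27. In KO, 3 were called lower, Cdc20 (0.42), Aurka (0.39) and Plk1 (0.37), against 7.29% of all genes, and the median was -0.10. In WT the Bub1 call was lost in 10 of 38 alternatives and that of Top2a in 7, and in KO those of Cdc20, Aurka and Plk1 in 12, 8 and 13. Without WT V6.5 the WT calls of Cdc20 (limma adjusted p = 0.078), Plk1 (0.058), Ccnb2 (0.19), Bub1 (0.16) and Top2a (0.053) were lost. The WT call of Aurka was kept in all 38.

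Cdc20 is shown by array because it had the largest day 7 difference between genotypes among the mitotic genes. On day 0 it read 10.81, 10.93, 11.01 and 11.04 in KO, against 10.57, 10.99, 11.10 and 11.02 in WT. Day 3 gave 10.87, 10.73, 10.83 and 11.01 against 10.69, 10.48, 10.85 and 11.10, and day 7 10.33, 10.25, 10.69 and 10.82 against 10.57, 9.89, 10.15 and 10.28. Day 7 was the low day in both genotypes, and the genotypes overlapped on every day. The day 7 KO minus WT difference of 0.30 did not pass (SE 0.16, adjusted p = 0.25).

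The proliferation marker Mki67 was the 1 mitotic gene called higher in WT. WT arrays read 11.05, 10.99, 11.15 and 11.23 on day 0 and 11.59, 11.30, 11.50 and 11.57 on day 7, without overlap, a rise of 0.38 (SE 0.13, adjusted p = 0.026). The call was lost in 9 of 38 alternatives: without WT J1 day 0 array 1 (0.057) or array 2 (0.068), WT J1 day 7 array 1 (0.069), both of that pair (0.073) or V6.5 day 7 array 2 (0.060), without WT J1 (0.24) or V6.5 (0.16), with arrays centred on their medians (0.076) and with repeats averaged (0.055). KO arrays read 11.32, 11.27, 11.37 and 11.23, then 10.98, 11.14, 11.40 and 11.44, and changed by -0.06 (adjusted p = 0.83). The interaction, -0.44 (95% interval -0.84 to -0.05), did not pass (adjusted p = 0.17).

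Top2a was the mitotic gene called between genotypes. Day 0 arrays read 11.53, 11.37, 11.55 and 11.42 in KO, against 12.28, 12.11, 11.74 and 11.81 in WT. All WT arrays lay above all KO arrays, WT J1 most, and the difference was -0.52 (SE 0.13, adjusted p = 0.036). It was lost in 12 of 38 alternatives, among them leaving out any 1 of 7 of the 8 day 0 arrays (adjusted p 0.053 to 0.105).

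Because each genotype combined different lines, KO and WT were also compared within J1, and E14 KO with V6.5 WT, by the difference of 2 arrays against 2. Ccnd2 was higher in KO in both pairs on every day, by 1.28, 1.17 and 0.86 in J1 and by 1.18, 2.14 and 1.40 in the other pair (adjusted p 5.7e-06 to 0.0080). Ccne1 on day 7 was likewise higher in both, by 1.45 in J1 (adjusted p = 1.5e-04) and 1.07 in the other pair (adjusted p = 0.0014). Ccnd1 on day 7 differed by 1.00 and 0.97, neither passing on its own (adjusted p = 0.054 and 0.052). Ccne2 on day 7 was lower in E14 KO than V6.5 WT by 0.70 (adjusted p = 8.3e-04), with -0.30 in J1 (adjusted p = 0.14), and V6.5 exceeded J1 among WT cells by 0.58 (adjusted p = 0.018), the 1 gene called between the WT lines that day, against 4.03% of all genes.

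In J1 alone, day 7 KO cells also held more Rrm2 (0.90), Mcm2 (0.82), Mcm3 (0.64) and Aurka (0.48), and less Rb1 (-0.67). That was 7 called genes of 35, against 14.2% of all genes, and in the other pair 3, against 18.7%. On day 0 the counts were 3 in J1 (Ccnd2, Foxm1, Top2a), against 1.66%, and 2 in the other pair (Ccnd2, Cdk6), against 6.8%. On day 3 Ccnd2 was the 1 gene called in each, against 2.6% and 5.93%. Rb1 on day 7 was the 1 gene whose difference itself differed between the pairs, by -1.12 (adjusted p = 0.048), against 3.82% of all genes. The KO lines differed from each other on day 7 in Rb1 (0.81, E14 higher, adjusted p = 0.047) and Mcm5 (-0.83, E14 lower, adjusted p = 0.013), against 3.27% of all genes. The J1 day 7 count rests on the J1 arrays that disagreed most: it was 17 without WT J1 array 1, and 1 without WT J1 array 2 or KO J1 array 2. The day 0 counts were 1 without any 1 of the 4 arrays in either pair, the J1 day 3 count was 0 without WT J1 day 3 array 2 and 2 without either WT J1 day 7 array, and the E14 and V6.5 counts on day 3 and day 7 were both 5 without either WT J1 day 7 array, which left those pairs whole.

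The wider machinery around these genes moved in the same direction in WT. From day 0 to day 7, 17 of 23 other DNA synthesis genes were called lower (median -0.55), 10 of 16 other licensing and helicase genes (-0.59) and 19 of 26 other mitotic genes (-0.41), with 0 higher, against 19.2% of all genes lower. The farthest were Rfc5, part of the clamp loader, at -1.16 (adjusted p = 5.3e-06), Orc1 of the origin recognition complex at -1.34 (adjusted p = 2.3e-08), and the separase gene Espl1 at -1.03 (adjusted p = 4.8e-06). Of 17 other G1 and E2F pathway genes, 11 were lower and 2 higher (-0.40), from Mybl2, which encodes B-MYB, at -2.42 (adjusted p = 1.3e-11) to Ccng2, an atypical cyclin linked with cell cycle exit, at 1.70 (adjusted p = 1.9e-06).

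In KO cells fewer of the same lists were called lower over the week: 5 of 23 synthesis genes (-0.24), 6 of 16 licensing genes (-0.26), 5 of 26 mitotic genes (-0.16) and 4 of 17 G1 and E2F genes with 1 higher (-0.08), against 7.29% of all genes lower. By interaction, 6 synthesis genes, 1 licensing gene, 2 mitotic genes and 3 G1 and E2F genes fell less in KO, against 4.74% of all genes. Mybl2 showed the largest, at 1.95 (SE 0.21, adjusted p = 2.0e-06), followed among those named by Rfc5 (0.86), Dbf4, the activator of the CDC7 kinase (0.70), and Wee1, which restrains CDK1 (0.57). Between genotypes on day 7, Mybl2 was 1.95 higher in KO (SE 0.17, adjusted p = 2.9e-08), Rfc5 0.94, the spindle checkpoint gene Mad2l1 0.88 and Dbf4 0.46, while Ccng2 was lower by 0.91 and the helicase component Gins2 by 0.62. Those day 7 lists held 3, 2, 4 and 3 genes called higher (G1 and E2F, synthesis, mitotic, licensing), against 10.1% of all genes, and 1, 0, 0 and 2 lower, against 6.23%.

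**Figure D5:**
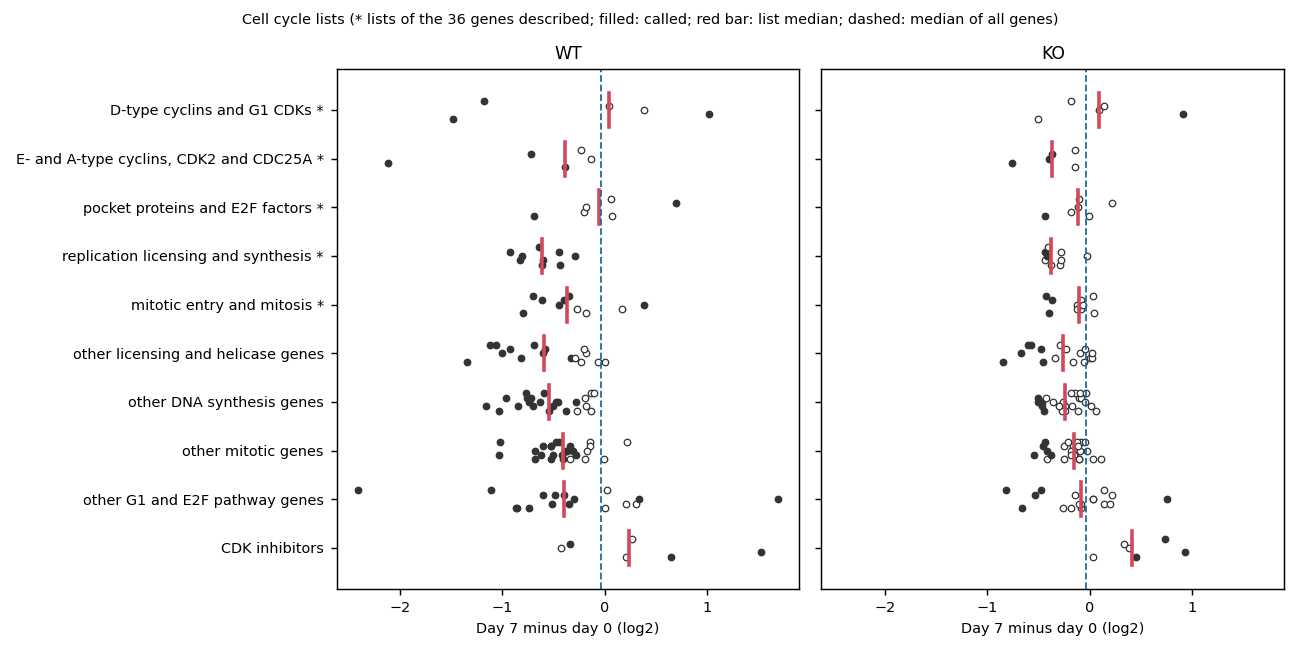
Change from day 0 to day 7 in log2 signal (x axis) of every measured gene in the 5 roles and the other pathway lists (rows). Panels show WT and Eed KO. Filled points passed the adjusted p threshold of 0.05, red bars are list medians and the dashed line is the all-gene median. The WT medians of the replication, synthesis and licensing lists lie at -0.61, -0.55 and -0.59, and the KO medians at -0.38, -0.24 and -0.26.

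Of the 6 CDK inhibitors measured, the brakes on these kinases, 2 rose and 1 fell in WT from day 0 to day 7, against 17.4% and 19.2% of all genes. In KO 3 rose, against 9.25%. Cdkn2b, which encodes p15, fell in WT by 0.34 (adjusted p = 0.044). Cdkn1c, which encodes p57, rose by 1.53 in WT (adjusted p = 1.2e-04) and 0.93 in KO (adjusted p = 0.025). Cdkn2a, a Polycomb target that encodes p16 and ARF, exceeded WT in KO cells by 0.98 on day 0 (adjusted p = 0.013), 1.26 on day 3 (adjusted p = 0.0014) and 1.79 on day 7 (adjusted p = 1.9e-06). On day 7, 3 of the 6 were called higher in KO, against 10.1% of all genes.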

How the data were processed

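Log2 signals were deposited for each probe set. The submitters' processing notes name RMA and Affymetrix Power Tools, and the sources used here give no versions, genome build or annotation. Of 35556 probe sets, 21789 name a single gene, 1621 name several, and 12146 are unnamed here. Symbols were updated through the RefSeq table (21698 matched), and the probe set with the highest mean stood for each of 19938 genes, 999 of which had several. All values, 2.08 to 14.4, were used as deposited, with no further scaling and no filter on low values.

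limma 3.58.1 in R 4.3.3 fitted 6 genotype-by-day means to the 24 arrays, with clone as a random block (duplicateCorrelation through statmod 1.5.0, consensus correlation 0.16). A second model fitted 12 line, genotype and day means without a block. P-values were adjusted by Benjamini-Hochberg over all genes, and the method was tested on simulated data. The number of arrays limits the precision. Pcna has 2 near-identical probe sets, and Top2a, E2f3 and Eed each have a second, dimmer one (means 5.57, 8.41 and 5.76).

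The genes and lists were chosen with earlier results of these data known. Genes shown by array were those called at 2-fold or more in any comparison and, for each other role, the gene with the largest day 7 difference between genotypes. Other pathway genes were named for the largest called change in each direction. Array values of Ccne2, Rb1, Rrm2, Top2a and Mki67, and the promoters of Mcm6, Cdc20 and Cdc25a, were added after their values were seen. Alternatives covered normalization, probe sets, low values, array weights, the block, the moderation and left-out arrays or clones.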

Additional observations from a re-analysis of the deposited data

Results flagged for a closer look

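In 210 groups of 4 arrays (35 genes, 2 genotypes, 3 days), 9 arrays stood apart from the other 3 of their group by Dixon's test, where chance gives about 10.5. Of these, 5 were arrays of WT J1: Cdk2 on day 7 read 10.02 (others 10.36 to 10.39), Mcm2 11.60 on day 3 (11.32 to 11.35) and 11.42 on day 7 (10.56 to 10.63), and Top2a 11.995 on day 7 (11.50 to 11.54). Mcm5 read 11.74 on day 0 (11.80 to 11.81). In KO E14, Ccna2 read 12.19 on day 0 (12.46 to 12.50), and on day 3 E2f2 read 7.20 (7.48 to 7.54) and Foxm1 9.62 (9.47 to 9.49). In KO J1, Mcm7 read 12.01 on day 3 (11.70 to 11.75).

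The genotypes differed in their change over time, by limma's interaction term, for Ccne1 from day 3 to day 7 (1.19) and from day 0 to day 7 (1.36), and for Cdk6 from day 0 to day 7 (1.00). Rb1 on day 7 differed in its KO minus WT difference between the J1 pair and the pair of E14 KO and V6.5 WT (-1.12).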

How the results depend on the processing

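Among listed genes called in a comparison of genotype, day or their interaction, no direction reversed in any alternative. The directions of genes not called were not checked. Counts of listed genes called, KO against WT on day 0, 3 and 7, were 2, 1 and 5. WT counts (day 3 against 0, 7 against 3, 7 against 0) were 8, 18 and 24, KO counts 2, 2 and 10, and interaction counts 0, 1 and 2. With a 2-fold minimum they were 1 and 2 (genotype, day 0 and 7), 0, 4 and 4 (WT), 0, 1 and 0 (KO), 1 and 1 (J1 pair, day 0 and 7), and 0 for both line contrasts on day 7. Averaging the arrays of a clone gave 0, 0 and 3 (genotype), 0 and 7 (WT, first 2 contrasts), 0, 0 and 1 (KO), and 0 and 1 (interaction to day 7). Without a clone block they were 4 (WT, day 3 against 0), 1, 1 and 4 (KO) and 1 (interaction, day 7 against 0).

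Leaving out a clone moved these. Without KO E14: 0 and 3 (genotype, day 0 and 7), 5 (WT, day 3 against 0), 1 and 1 (KO, day 3 and 7 against 0) and 1 (interaction, day 7 against 0). Without KO J1: 1 and 2, 5, 0, 1 and 2 (KO, all 3) and 1. Without WT J1: 2 (genotype, day 3), 3 (WT, day 3 against 0), 6 (KO, day 7 against 3), 5 and 4 (interaction to day 7). Without WT V6.5: 0, 5 and 11 (WT), 1 (KO, day 7 against 3), 0 and 1 (interaction). With both WT J1 day 7 arrays left out, an alternative chosen after seeing the data, 4 were called in KO from day 3 to day 7 and 3 in that interaction.

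Array weights gave 2 (genotype, day 3), 4 (KO, day 3 against 0), 5 and 6 (interaction), 9, 2 and 5 (E14 KO against V6.5 WT), 4 (J1 pair, day 7), 4 (KO lines, day 0) and 1, 2 and 0 (WT lines). A second quantile normalization gave 1 and 1 (KO, day 3 against 0 and 7 against 3) and 1 and 2 (KO lines, day 0 and 3). Centring on medians gave 1 (interaction, day 7 against 0), 2 and 2 (WT lines, day 3 and 7) and 1 (KO lines, day 7). A mean of at least 6 gave 1 and 2 (WT lines) and 5 (E14 KO against V6.5 WT, day 7), trend with robust moderation 1 and 2 (WT lines), and the mean of all probe sets 1 (genotype, day 0) and 2 (WT lines, day 7). The all-array medians moved by up to 0.0594 (quantile) and 0.114 (centring), and the listed genes' median kept its sign in every comparison.

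Single arrays left out gave ranges of 1 to 2, 1 to 1 and 3 to 9 (genotype), 1 to 9, 11 to 21 and 18 to 24 (WT), 1 to 3, 1 to 4 and 2 to 13 (KO), and 0 to 0, 1 to 3 and 1 to 7 (interaction). By day 0, 3 and 7 the ranges were 1 to 4, 0 to 2 and 1 to 17 (J1 pair), 1 to 3, 1 to 5 and 3 to 5 (E14 KO against V6.5 WT), 0 to 3, 0 to 3 and 0 to 3 (KO lines), and 0 to 1, 0 to 2 and 0 to 6 (WT lines). The deviations between array numbers 1 and 2 had a median correlation of 0.0569 over 66 pairs of groups (-0.397 to 0.470, 30 above 0.1). A median over all pairs cannot exclude a pairing shared by some of the groups. With the replicate block the counts were 2, 1 and 5 for genotype and 24 for WT from day 0 to day 7, and the WT lines on day 7 gave 2 in place of 1.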

Other observations

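Other CDK inhibitors also moved. Cdkn1b, which encodes p27, rose from day 0 to day 3 in both genotypes, by 0.58 in WT (limma adjusted p = 0.0029) and 0.51 in KO (adjusted p = 0.014), the days over which E2f1 fell in both. Cdkn2b, the neighbour of Cdkn2a, was higher in KO on day 7 by 1.08, and Cdkn2c by 0.73 on day 3 and 0.76 on day 7. In the first 3 days of WT differentiation the pathway genes with the largest falls were Mybl2 (1.14), Cdt1 (0.62), Tk1 (0.55) and Hmmr (0.50).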
